A study of Mus musculus with 4 samples.

Results

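The 40 genes described here are transcripts of dividing cells, taken as a fixed list out of the 32285 genes in the deposited matrices, and all 40 symbols were found. They were read in mouse blood mononuclear cells as UMIs (unique molecular identifiers, each a counted molecule) per 1000000 UMIs of a cell class, abbreviated CPM, and as the number of members seen in each cell. The list holds 24 genes of mitosis and the G2/M transition, 12 genes of DNA synthesis and 4 chromatin and tubulin genes that resting cells also express. The choice of genes used no value of these cells, but it was made with earlier results of the data known.

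The study profiled peripheral blood of 2 inbred strains, labelled BL/6 and SM/J, at 12 and 20 months of age, so that circulating immune cells can be compared by age and by strain. Blood was drawn by heart puncture, and mononuclear cells were taken from a density gradient, spun slowly against platelets and freed of red cells. No treatment, transgene or induced mutation is labelled, and no number of animals was given in the sources used here. Each strain contributed 1 droplet sample on the 10x Genomics platform, in which cells of both ages were mixed and told apart by tag oligos. There are thus 4 libraries, BL/6 at 12 months, BL/6 at 20 months, SM/J at 12 months and SM/J at 20 months, and where 4 values follow each other below they stand in this order. An age contrast lies within 1 droplet run, whereas strain and run cannot be told apart. With 1 library per strain and age there is no replicate, so no test was made and no p-value is given. Intervals are exact 95% intervals for counting error only, and they are too narrow where a few cells hold most of the UMIs. Each library also divides into 3 tagged aliquots; the sources used here do not say whether a tag is an animal. Their lowest and highest values are given as a measure of spread.

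Progression through the cell cycle is read from transcripts because many of its genes are switched on in order and their products are destroyed after use. Genes for nucleotides and the replication machinery are switched on by E2F factors before S phase, and genes for cyclins, the spindle and the kinetochore follow before mitosis, through promoters that carry CCAAT boxes and a cell cycle element known as CHR. Most leukocytes in blood are quiescent, and division takes place mainly in marrow, lymphoid organs and tissues, although activated lymphocytes can be found in cycle in the circulation.

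Promoters of 6 members are shown to make these elements visible, 5 of the mitosis group and Mcm6 of the synthesis group. Each is the stretch of 200 bases before the annotated start, 5′ to 3′ along the gene, from RefSeq for GRCm38.p6. Mki67 lies at chr7:135716380-135716579 on the minus strand, Top2a at chr11:99024190-99024389 on the minus strand, and Ccnb1 at chr13:100786487-100786686 on the minus strand. Ube2c lies at chr2:164769729-164769928 and Birc5 at chr11:117849037-117849236, both on the plus strand, and Mcm6 at chr1:128359706-128359905 on the minus strand. Capitals mark, on either strand, the box CCAAT, the words TTTGAA or TTTAAA (the core letters of a CHR), and TTTCGCGC, TTTGGCGC or TTTCCCGC (forms bound by E2F factors), and adjoining or overlapping matches run together.
Mki67: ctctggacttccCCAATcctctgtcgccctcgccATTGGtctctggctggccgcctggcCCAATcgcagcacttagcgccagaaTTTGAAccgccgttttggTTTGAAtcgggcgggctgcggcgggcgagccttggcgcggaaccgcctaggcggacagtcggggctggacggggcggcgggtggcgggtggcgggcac
Top2a: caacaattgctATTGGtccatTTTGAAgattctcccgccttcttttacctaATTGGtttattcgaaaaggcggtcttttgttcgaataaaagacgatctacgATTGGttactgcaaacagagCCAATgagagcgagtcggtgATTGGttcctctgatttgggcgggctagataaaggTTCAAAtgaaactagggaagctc
Ccnb1: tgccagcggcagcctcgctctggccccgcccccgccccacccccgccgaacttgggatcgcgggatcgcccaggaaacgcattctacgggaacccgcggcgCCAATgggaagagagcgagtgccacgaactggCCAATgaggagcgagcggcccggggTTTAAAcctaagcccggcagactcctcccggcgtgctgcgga
Ube2c: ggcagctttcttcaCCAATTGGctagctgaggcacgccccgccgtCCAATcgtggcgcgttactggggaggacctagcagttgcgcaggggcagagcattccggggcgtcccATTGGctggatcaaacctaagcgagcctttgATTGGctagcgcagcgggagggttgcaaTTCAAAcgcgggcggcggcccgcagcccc
Birc5: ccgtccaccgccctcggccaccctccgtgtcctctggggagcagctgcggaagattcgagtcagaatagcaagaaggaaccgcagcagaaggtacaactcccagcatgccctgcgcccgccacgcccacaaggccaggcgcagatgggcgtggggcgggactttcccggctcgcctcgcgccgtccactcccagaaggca
Mcm6: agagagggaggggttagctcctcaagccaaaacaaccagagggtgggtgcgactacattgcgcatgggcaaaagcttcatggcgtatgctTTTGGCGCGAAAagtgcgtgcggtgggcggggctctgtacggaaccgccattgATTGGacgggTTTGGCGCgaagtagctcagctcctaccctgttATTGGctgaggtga

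Ube2c and Top2a each showed 5 CCAAT matches in these bases, Mki67 showed 3 and Ccnb1 showed 2, and each of these 4 genes also had a TTTGAA or TTTAAA match. Mcm6 had 2 CCAAT matches and 3 of the E2F-like words, of which a pair overlaps. Birc5 had none of the words in the bases shown. RefSeq promoter windows of 300 bases (250 before to 50 after the start) were found for 34 of the 40 members, H2afz under the symbol H2az1, and for 27025 genes in all. CCAAT was found in 18 of 20 mitosis windows (90%) and 9 of 11 synthesis windows (81.8%), against 41.1% of all windows. TTTGAA or TTTAAA was found in 18 of 20 mitosis windows (90%) and 5 of 11 synthesis windows (45.5%), against 30.6% of all. In the 200 bases before the start alone, the mitosis share with TTTGAA or TTTAAA was 50% and the synthesis share 18.2%, against 22.5% of all genes. One of the 3 E2F-like words was found in 1 of 20 mitosis windows and 5 of 11 synthesis windows, against 2.12% of all. These are matches of letters, and no factor binding was measured.

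Of 12299 deposited cells, 11596 were kept, between 2407 and 3398 per library, after limits on UMIs, genes and mitochondrial share and removal of 125 called doublets. The gene UMIs deposited per library summed to between 14250603 and 30627357, and the median kept cell held 4060, 4914, 4729 and 8837 UMIs. Pairs of libraries shared 0 to 3 cell barcodes. Cells fell into 27 clusters, built without the 40 members and without the lists of other G2/M and S phase genes described below. Where members are said to be left in the clustering, those other genes were left in too. Of the clusters, 25 were named from marker genes. The names are rebuilt here, and each stands for a cell that is only like that type. The 421 cells in the other 2 clusters stayed unnamed. The labelled mononuclear cells included platelet-like and erythroid cells as well as macrophage-like cells that express Prg4, Alox15 and Cd5l. B cells were divided by Zcwpw1, a histone reader known from meiosis, at 5 UMIs per cell. Most B cells came from clusters 0, 1 and 3 in BL/6 and from clusters 2, 8, 21 and 26 in SM/J, most classical monocytes from cluster 5 in BL/6 and 25 in SM/J, and most nonclassical monocytes from cluster 7 in BL/6 and 19 and 24 in SM/J. T cells (clusters 11, 12, 14 and 16), NK cells (9), macrophages (4) and plasma cells (17) shared clusters between strains.

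The summed level of the 24 mitosis members separated a few populations from the rest. Classical monocytes held 85.5, 99.5, 120.2 and 72.2 CPM and nonclassical monocytes 125, 61.4, 86.0 and 72.8 CPM. Platelets, which have no nucleus, held 46.1 CPM in BL/6 at 12 months and 27.6 CPM in BL/6 at 20 months, from 9 and 6 UMIs. Well above these stood NK cells of BL/6 at 12 months (1304 CPM), plasma cells of SM/J at 20 months (1159 CPM) and Zcwpw1-high B cells of SM/J at 20 months (573 CPM). Aliquots spread from 541 to 1735 CPM for those NK cells, from 88.1 to 1715 for those plasma cells and from 497 to 643 for those B cells, so the last alone was alike in its 3 aliquots.

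**Figure D1:**
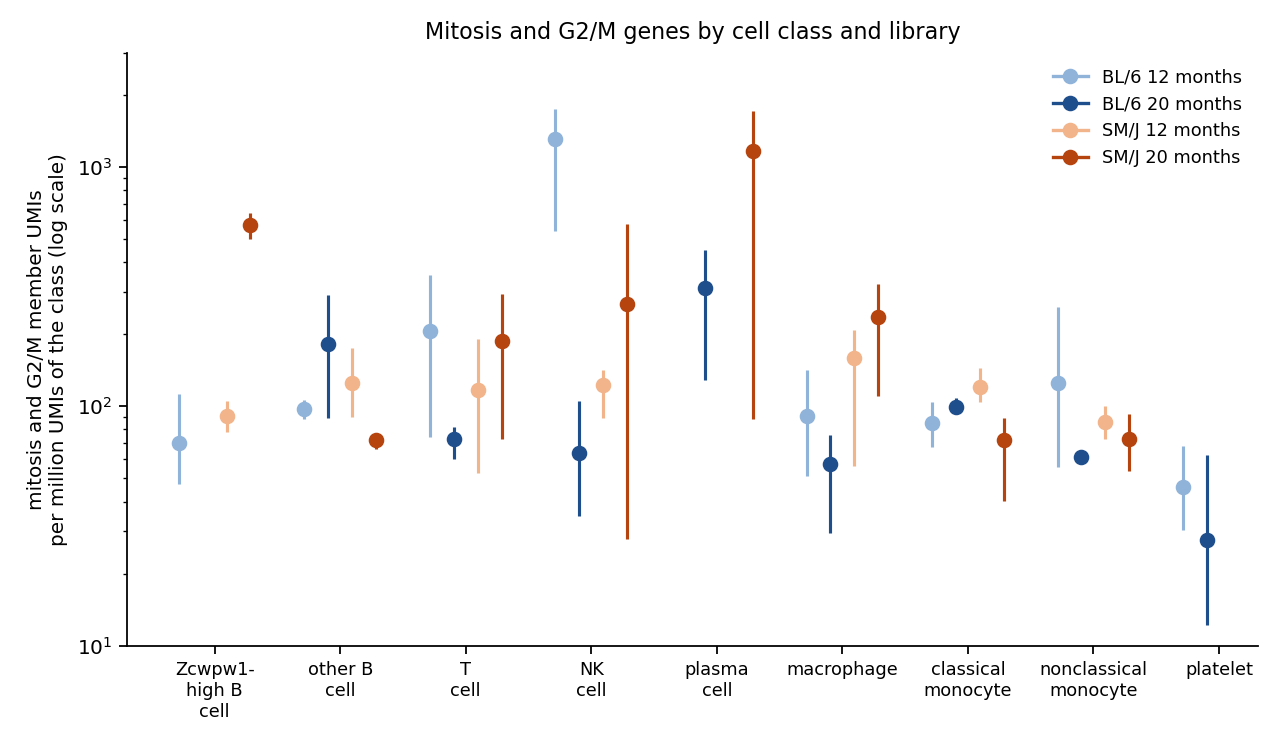
Level of the 24 mitosis and G2/M members in CPM (vertical axis, log scale) in each cell class (horizontal axis) and library (colour); points are whole libraries and bars run from the lowest to the highest of 3 tagged aliquots, with only classes of at least 20 cells drawn. Zcwpw1-high B cells of SM/J at 20 months stand at 573 CPM with a short bar, while the bars of NK, plasma and T cells are long.

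A small number of cells carried these levels. Only 95 of the 11596 cells held at least 10 different mitosis members, 16, 5, 3 and 71 in the 4 libraries. Of the 95, 55 were Zcwpw1-high B cells of SM/J at 20 months, 12 were macrophages, 10 were T cells, 6 were NK cells and 6 were plasma cells, and 3 were other B cells. The remaining 3 were a nonclassical monocyte, a conventional dendritic cell and a cell of an unnamed cluster. None was a classical monocyte, a basophil or a platelet. Single mitosis members were more widespread. Among all kept cells other than Zcwpw1-high B cells of SM/J at 20 months, those with fewer than 3 other mitosis members held Cenpa in 16.4% and Kif23 in 5.02% of cells.

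Zcwpw1-high B cells were the largest population with raised members. They numbered 48, 7, 22 and 886 cells, and at 20 months in SM/J they made up 55.4% of B cells. In these 886 cells all 40 members together stood at 1952 CPM (95% interval 1929.7 to 1974, aliquots 1787 to 2186), against 776 (749 to 803, aliquots 721 to 843) in the 713 other B cells of the same library. The log2 ratio of the summed levels was 1.33 (1.28 to 1.38), and neither the totals nor the mitosis sums of the aliquots overlapped. By role, mitosis members stood at 573 against 72.2 CPM (log2 ratio 2.97, 2.81 to 3.14), synthesis members at 347 against 153 (1.18, 1.06 to 1.30) and the broadly expressed members at 1031 against 551 (0.90, 0.84 to 0.97). Both sets of cells share a library and a run, and they differ in depth, with medians of 12991.5 and 5134 UMIs per cell. They also differ in cluster, with 883 of the 886 Zcwpw1-high cells in cluster 26 and the other B cells mostly in clusters 2, 8 and 21. The 32 cells of cluster 26 with fewer than 5 Zcwpw1 UMIs had a mitosis level of 70.01 CPM (42.8 to 108).

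Member by member, ratios were taken with 1 CPM added to both levels, for genes with at least 50 UMIs in both sets together, and a ratio counts as past the limit at a log2 value of 1 or more in size. All 40 members reached that minimum, 30 of them were past the limit and higher in Zcwpw1-high cells, and none was past it and lower. Over all 10294 genes that reached the minimum, 8.22% were past the limit and higher and 6.71% were past it and lower. The median member stood at a log2 ratio of 2.18, the median of all these genes at -0.02. In this and the later contrasts a member that is high in 1 set can reach the minimum through that set alone. Here Bub1b had 0 UMIs and Cdk1 had 1 in other B cells, against 77 and 312 in Zcwpw1-high cells. With no minimum, 30 members were again past the limit and higher and 0 lower, against 5.31% and 5.99% of all genes with a UMI. By role, 23 of 24 mitosis members, 5 of 12 synthesis members and 2 of 4 broadly expressed members were past the limit, and the interval lay above 0 for 39 of the 40, all but Rrm1.

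Among the cell cycle engines, Mki67, which coats mitotic chromosomes, was found at 82.0 CPM in Zcwpw1-high cells (aliquots 61.5 to 102.3) and at 3.33 CPM in other B cells (3.11 to 3.62), a log2 ratio of 4.26 (3.65 to 4.89). Top2a, the topoisomerase that untangles sister chromatids, was at 88.4 (66.1 to 110.1) against 6.89 CPM (4.01 to 9.32), a log2 ratio of 3.50 (3.03 to 4.00). In both genes the lowest Zcwpw1-high aliquot was far above the highest aliquot of other B cells. Cdk1, the kinase that drives mitotic entry, had a log2 ratio of 4.12, and its cyclins Ccnb1, Ccnb2 and Ccna2 had 3.09, 2.28 and 2.79. Cdca3, which promotes mitotic entry, stood at 3.36, and the kinase Plk1 at 2.38. The aliquots of the 2 sets of cells did not overlap for these genes, nor for any other of the 40 members but Rrm1.

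Ube2c, which loads ubiquitin for the anaphase-promoting complex, had the largest log2 ratio of any member, 4.49 (42.9 against 0.95 CPM). The kinetochore gene Cenpf followed at 4.42 (25.5 against 0.24 CPM). Of the chromosomal passenger complex, Birc5 had a log2 ratio of 3.61, Cdca8 2.87 and Aurkb 1.93. Spindle genes ranged widely. Hmmr was at 3.47, Nusap1 at 3.24, Kif11 at 2.25, Aurka at 1.94 and its activator Tpx2 at 1.92, and the kinesins of cytokinesis Kif20a and Kif23 were at 1.43 and 1.25. Bub1, of the spindle checkpoint, was at 2.29, the kinetochore motor Cenpe at 1.41, and Bub1b, with 77 UMIs in Zcwpw1-high cells and none in other B cells, was at least 7.11-fold higher, taking 3 counts over the other B cells as the floor. Cenpa, the histone of the centromere, was the exception at 46.3 against 28.3 CPM (0.69, 0.42 to 0.98).

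The synthesis members fell into a steep and a shallow set. Pclaf, a PCNA-binding protein, was at 69.4 against 2.38 CPM (log2 ratio 4.38), and Rrm2, the S phase subunit of ribonucleotide reductase, at 22.8 against 0.95 (3.61). Tk1 and Tyms, which supply thymidine nucleotides, were at 2.12 and 2.07, and Mcm5 of the replicative helicase at 1.98. The other helicase subunits were lower, with Mcm3 just under the limit of 1, Mcm2 at 0.88, Mcm7 at 0.79, Mcm4 at 0.74 and Mcm6 at 0.37. Pcna, the sliding clamp of DNA polymerases, was at 69.6 against 48.5 CPM (0.51, 0.30 to 0.73). Rrm1, the partner of Rrm2, was at 18.2 against 17.8 CPM, a log2 ratio of 0.03 with an interval of -0.33 to 0.39.

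Of the broadly expressed members, Stmn1, which destabilises microtubules, was at 45.7 against 6.18 CPM (2.70), and the alpha tubulin Tuba1b at 254 against 107 (1.23). The chromatin genes Hmgb2 and H2afz, at 393 against 225 and 339 against 212 CPM, had log2 ratios of 0.80 and 0.67. The 10 members not past the limit all stood at 4.28 CPM or more in other B cells, as did Top2a, Stmn1 and Tuba1b, which were past it.

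**Figure D2:**
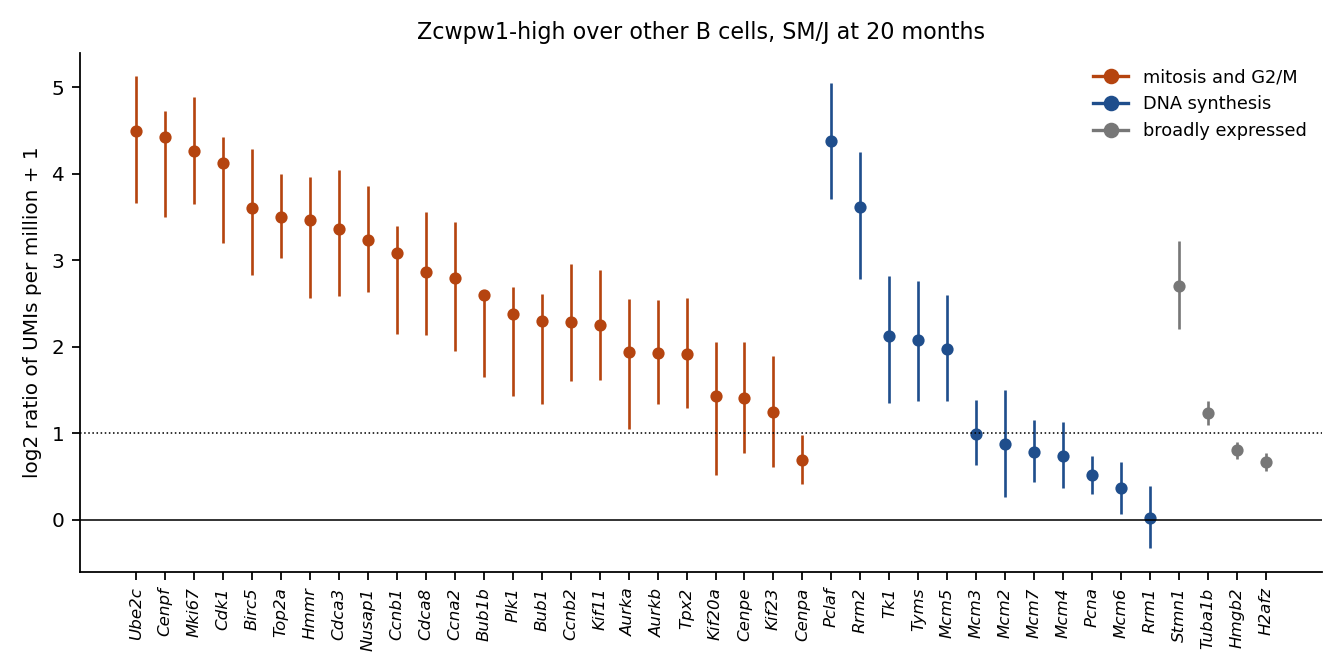
log2 ratio of CPM + 1 (vertical axis) in Zcwpw1-high over other B cells of SM/J at 20 months for each of the 40 members (horizontal axis), coloured by role, with 95% intervals for counting error. Mitosis members run from Ube2c at 4.49 to Cenpa at 0.69, synthesis members from Pclaf at 4.38 to Rrm1 at 0.03, and the dotted line is the limit of 1.

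Most mitosis UMIs of the Zcwpw1-high cells lay in few of them. At least 10 mitosis members were found in 55 of the 886 cells (6.21%, interval 4.71 to 8.00), 11 of them with all 24, and these 55 held 88.7% of the mitosis UMIs of the population. Without them the mitosis level was 77.9 CPM, and other B cells without their 1 such cell were at 68.3. Here and below, a level without such cells is low by the choice of cells, since the members themselves chose which were left out. No single cell dominated, the highest holding 3.43%, and 416 of the 886 cells (47.0%) held no mitosis member. Between 3 and 9 mitosis members were found in a further 63 cells.

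**Figure D3:**
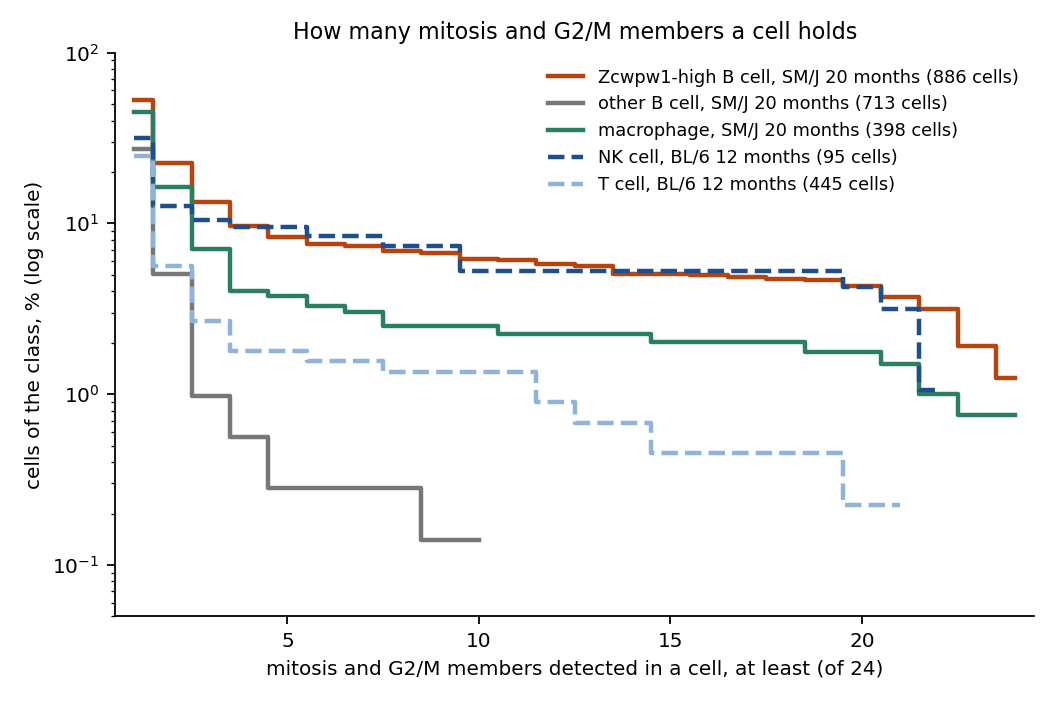
Share of cells of a class (vertical axis, %, log scale) with at least a given number of the 24 mitosis and G2/M members detected (horizontal axis), not thinned, for selected classes and libraries. The Zcwpw1-high B cells and the NK cells of BL/6 at 12 months fall little between 10 and 20 members, from 6.21% to 4.29% and from 5.26% to 4.21%, while no other B cell of SM/J at 20 months exceeds 10.

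Shares of cells depend on depth, so cells were also thinned at random to 1000 UMIs each, which left out shallower cells. At least 3 mitosis members remained in 31 of 886 thinned Zcwpw1-high cells (3.50%, 2.39 to 4.93) and in 1 of 710 other B cells (0.141%). Unthinned, the counts were 118 of 886 (13.3%) and 7 of 713 (0.982%). With any 3 of the 40 members the thinned share was 9.59% (7.73 to 11.7) against 2.25%, and the unthinned share 84.7% against 47.4%. Platelets and nonclassical monocytes gave a background. Thinned platelets had 3 mitosis members in 0 of 80 and 0 of 86 cells. All 150 and 173 platelets of these libraries had medians of 1034.5 and 998 UMIs, so many were too shallow to be thinned. Thinned nonclassical monocytes had 3 mitosis members in 1 of 352, 0 of 700, 0 of 403 and 0 of 171. The 0 of 700 allows a share of up to 0.429%, taken as 3 counts over the number of cells, for counting error only. In nonclassical monocytes any 3 of the 40 members were found in 2.34% to 3.41% of thinned cells, beside the 2.25% of other B cells.

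Depth and member content moved together within the Zcwpw1-high cells. Those with at least 3 mitosis members had a median of 26517.5 UMIs and 5019 genes, against 12350.5 UMIs and 3029 genes in the rest. In cells of 5000 to 10000 UMIs the mitosis level was 46.4 CPM in Zcwpw1-high and 62 in other B cells, and from 10000 to 20000 UMIs it was 156 against 74.2. Above 20000 UMIs lay 158 Zcwpw1-high cells at 1182 CPM, 52.5% of them with at least 3 mitosis members. At 10000 to 20000 UMIs the unthinned shares with 3 mitosis members were 6.39% and 5.97%, from 34 and 4 cells. The part of depth in the difference between the 2 sets was not tested.

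Some other traits of these 118 cells lay close to those of the rest. The mitochondrial share had medians of 5.67% and 5.96%, and Zcwpw1 stood at 1480 against 1614 CPM. B cell markers, 10 of 10 detected, summed to 6855 against 7242 CPM, and plasma cell markers to 2190 against 1932. T cell markers summed to 4.97 against 12.1 CPM, conventional dendritic cell markers to 4.32 against 14.7 and macrophage markers to 174 against 254. NK markers were higher at 12.1 against 4.35 CPM with 2 of 10 at 0, and so were basophil markers at 109 against 42.7 with 6 of 7 at 0. Classical monocyte markers summed to 31.1 against 28.7 CPM, nonclassical monocyte markers to 75.0 against 83.4, plasmacytoid dendritic cell markers to 45.8 against 61.4 and neutrophil markers to 1.51 in both. Progenitor markers (111 against 234, 5 of 7 at 0), erythroid markers (32.0 against 102.1) and platelet markers (14.5 against 25.8) were lower in the cells with mitosis members. The part of RNA from other cell types in these results was not tested. The doublet caller left out 11 of the 930 deposited cells of this library with at least 5 Zcwpw1 UMIs, and 1 of 169 with at least 3 mitosis members.

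The members marked the same cells. For each member, Zcwpw1-high cells were split by whether they held at least 3 of the other mitosis members. Mki67 was found in 73.6% of the cells with them and 7.31% of the cells without, Top2a in 69.8% and 6.67%, and Birc5 in 55.1% and 0.130%. Bub1 was found in 33.1% and in none of the others. Members outside mitosis followed the same split. Pclaf was seen in 66.9% against 2.21%, Stmn1 in 67.8% against 2.34%, Mcm6 in 73.7% against 15.2% and Pcna in 80.5% against 40.1%. The least specific were H2afz (96.6% against 82.2%), Hmgb2 (94.1% against 81.5%), Tuba1b (91.5% against 63.4%) and, within mitosis, Cenpa (72.2% against 23.2%). These cells are also the deeper ones, as given above, and the part of depth in these shares was not tested.

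**Figure D4:**
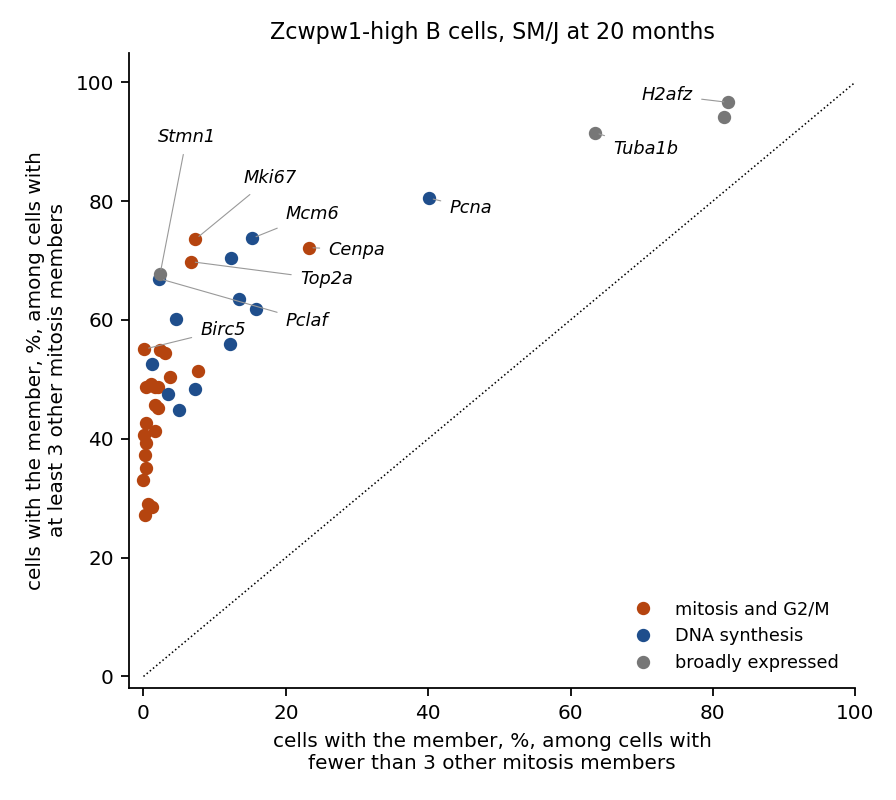
Share of Zcwpw1-high B cells of SM/J at 20 months in which a member was detected, among cells with at least 3 other mitosis members (vertical axis, %) and among the remaining cells (horizontal axis, %); each point is 1 of the 40 members, coloured by role, and the dotted line marks equal shares. Most mitosis members lie at the left edge, while Cenpa, Pcna, Tuba1b and H2afz reach far into the remaining cells.

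At full depth, Zcwpw1-high cells with mitosis members mostly held synthesis members too. Of the 886 Zcwpw1-high cells, 99 had at least 3 of each role, 19 had at least 3 mitosis members only, 103 at least 3 synthesis members only and 665 neither. At least 3 synthesis members were thus found in 83.9% of cells with 3 mitosis members and in 13.4% of the others. After thinning the same 4 counts were 9, 22, 7 and 848, so synthesis members were found in 29.0% of cells with 3 mitosis members and in 0.819% of the others.

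Genes of the cycle outside the 40 followed in part. Of 51 other G2/M genes, 45 reached the minimum and 34 were past the limit and higher in Zcwpw1-high cells, with a median log2 ratio of 1.82. The 4 with most UMIs were Smc4 (0.11), Tmpo (0.28), Ckap5 (0.16) and Smc2 (1.74), of which Smc2 and Smc4 are the condensin ATPases. Of 39 other S phase genes, 38 reached the minimum, 18 were past the limit and higher and 1 lower, Cdt1, which licenses origins (-1.12). Those with most UMIs were Nasp (0.24), Slbp (0.34), Dut (0.41) and Rfc2 (-0.10). The share of all genes past the limit in this contrast was 8.22% higher and 6.71% lower. Among 30 genes of cycle entry and its brakes, 28 reached the minimum, with E2f1 (1.22), E2f2 (1.56), Cdk6 (1.09) and Cdkn2c (1.61) past the limit and higher. Btg1, an antiproliferative gene, was lower at 354 against 1087 CPM (-1.61), and so was the cyclin Ccnd3 at 168 against 411 (-1.28), while Klf2 (-0.12) and Btg2 (0.02) were near 0.

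The Zcwpw1-high B cells of both 12-month libraries did not show these levels, and the 7 of BL/6 at 20 months were too few to be summed. All members stood at 752 CPM in the 48 cells of BL/6 at 12 months (676 to 833) and at 779.7 in the 22 cells of SM/J at 12 months (682 to 887), and mitosis members at 70.4 and 91.1 CPM. At least 3 mitosis members were found in 0 of 48 and 1 of 22 cells, unthinned, and the 0 of 48 allows up to 6.25% by the same bound. Mki67 was at 0 and 10.1 CPM in these 2 sets, Top2a at 6.21 and 10.1, Ube2c and Pclaf at 0 in both, and Stmn1 at 2.07 and 3.38. Cenpa, at 49.7 and 43.9 CPM, was as high as the 46.3 of SM/J at 20 months. Pcna was at 26.9, 27.0 and 69.6, Mcm6 at 24.8, 23.6 and 33.0 and Mcm3 at 14.5, 30.4 and 29.9 CPM in BL/6 at 12, SM/J at 12 and SM/J at 20 months. Hmgb2 was at 319, 223 and 393, H2afz at 174, 206 and 339 and Tuba1b at 70.4, 125 and 254 CPM in the same order.

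Other B cells stayed at low member levels in every library. All members stood at 696, 799, 833 and 776 CPM and mitosis members at 97.5, 182, 125 and 72.2. The 182 of BL/6 at 20 months rested on 1 cell with 23 mitosis members, which held 44.6% of the UMIs, and without it the level was 101.9 CPM. In SM/J at 12 months 1 cell held 17.7% and the level without it was 103. The log2 ratio of all members for 20 over 12 months was 0.20 (0.13 to 0.27) in BL/6, where the aliquot ranges overlap, and -0.10 without the aliquot that holds that cell; in SM/J it was -0.10 (-0.17 to -0.04).

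Of 15 members with enough UMIs in the BL/6 age contrast of other B cells, Top2a (8.62 to 18.9 CPM, log2 ratio 1.05) was past the limit and higher and none lower, against 0.559% and 0.677% of all genes. Without the cell with most mitosis UMIs in each library, the Top2a ratio was 0.23 (-0.37 to 0.81). In SM/J 3 of 16 were past it and lower at 20 months, against 1.33% of all genes. These were Mki67 (10.0 to 3.33 CPM, -1.35), Top2a (16.8 to 6.89, -1.17) and Nusap1 (17.7 to 3.56, -2.04), and the aliquots did not overlap for Top2a and Nusap1. Without that cell in each library Top2a was at -0.85 and within the limit, and Mki67 (-1.13) and Nusap1 (-1.90) were past it. Kif23 was at 4.96, 9.43, 7.74 and 3.56 CPM. Cenpa was higher in both BL/6 libraries, at 61.1, 67.3, 34.3 and 28.3 CPM, and H2afz in both SM/J libraries, at 133, 131, 243 and 212. Between strains at 12 months Mki67 (2.03) and Nusap1 (2.05) were higher in SM/J and Mcm2 (-1.01) lower, against 4.74% higher and 5.63% lower of all genes. At 20 months Top2a (-1.33) and Cenpa (-1.22) were lower in SM/J and Tuba1b (1.01) higher, against 6.57% and 4.24%. Without that cell Top2a was at -0.50 (-1.19 to 0.20).

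The synthesis genes of other B cells lay closer together. Pcna was at 52.1, 57.2, 49.7 and 48.5 CPM, Mcm6 at 22.8, 14.8, 26.8 and 25.4 and Rrm1 at 14.4, 20.8, 14.5 and 17.8. Mcm4 was at 19.3, 18.9, 11.6 and 14.5, Mcm7 at 13.4, 16, 14.5 and 16.4 and Mcm2 at 9.79, 9.12, 4.35 and 4.28. Hmgb2 held at 240.1, 253, 246 and 225 CPM. Tuba1b was at 56.8, 52.8, 66.9 and 107 and Stmn1 at 7.70, 11, 6.13 and 6.18. Outside the 40, Klf2, a factor of quiescent lymphocytes, was at 1414 and 1169 CPM at 12 and 20 months in BL/6 and at 1892 and 1527 in SM/J. Ccnd3 was at 362 and 692 in BL/6 and at 411 at both ages in SM/J, Btg1 at 1024 and 1095 and at 1208 and 1087, and Btg2 at 255 and 322 and at 280 and 309. Smc4 (log2 ratios -0.10 and -0.33 in BL/6 and SM/J), Ckap5 (0.24 and 0.01), Tmpo (0.23 and -0.16), Cks2 (0.60 and -0.41), Cdt1 (-0.11 and -0.34), Slbp (-0.12 and -0.31), Nasp (-0.09 and -0.16) and Rfc2 (-0.20 and 0.07) were all within the limit.

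T cells carried more of the members, and the 2 strains differed in the direction of the age contrast. All members stood at 1655, 1093, 1202 and 1688 CPM, which gives BL/6 a log2 ratio for 20 over 12 months of -0.60 (-0.66 to -0.53), and SM/J one of 0.49 (0.40 to 0.58). The BL/6 aliquots ran from 1281 to 1999 CPM at 12 months and from 1051 to 1123 at 20 months, without overlap, whereas the SM/J aliquots (1028 to 1430.3 and 1149.6 to 1949) overlapped. Mitosis members stood at 206, 73.2, 116 and 187 CPM, with aliquots from 74.2 to 352, 60.2 to 81.6, 52.8 to 190.1 and 73.2 to 295, so their ranges overlapped in both strains. A single cell held 27.6%, 22.8%, 26.4% and 48.4% of these mitosis UMIs. Without that cell in each library, a step added after the data were seen, the levels were 150.0, 56.8, 86.1 and 98.0 CPM. The 6 cells of BL/6 at 12 months with at least 10 mitosis members held 69.7% of its mitosis UMIs, and without all such cells the BL/6 levels were 64.0 and 47.2 CPM.

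Of 16 members with enough UMIs in the BL/6 age contrast, 3 were past the limit and lower at 20 months, against 1.7% of all genes. They were Top2a at 33.8, 9.81, 9.27 and 28.5 CPM (log2 ratio -1.69), Mki67 at 25.5, 8.50, 8.11 and 27.5 (-1.48) and Pclaf at 16.3, 5.56, 5.22 and 24.6 (-1.40). The Top2a aliquots of BL/6 did not overlap between ages (20.1 to 46.3 against 7.18 to 11.4 CPM), and those of Mki67 and Pclaf did. In SM/J none of 11 members with enough UMIs was past the limit, against 1.16% higher and 0.466% lower of all genes, and Mki67, Top2a and Pclaf fell short of the minimum of 50 UMIs there. Mki67 and Pcna nonetheless had SM/J aliquots that did not overlap between ages, those of Mki67 running from 1.52 to 17.1 CPM at 12 months and from 18.3 to 40.8 at 20 months. Between strains the same 3 genes were past the limit and lower in SM/J at 12 months (3 of 16, against 5.98%), and Mki67 (1.59) and Top2a (1.45) were higher in SM/J at 20 months (2 of 14, against 2.22%). Without the cell with most mitosis UMIs in each library, the ratios at 20 months were 0.99 for Mki67 and 0.19 for Top2a, both within the limit. The age and strain contrasts share libraries and are not independent of each other.

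The remaining T cell members that had most UMIs varied in their order across libraries. Cenpa was at 31.0, 20.3, 36.5 and 30.5 CPM, Kif11 at 11.5, 4.25, 4.64 and 3.93 and Birc5 at 9.55, 1.96, 5.22 and 13.8. Pcna was at 93.1, 60.5, 51.0 and 81.6, Mcm6 at 50.6, 25.2, 31.3 and 43.3, and Mcm4 at 43.4, 40.2, 26.7 and 41.3 CPM. For Mcm6 the BL/6 aliquots did not overlap between ages. Mcm3 was at 29.5, 22.2, 20.3 and 28.5 and Rrm1 at 25.5, 21.2, 27.2 and 25.6. Hmgb2 was at 553, 407, 413 and 602, H2afz at 449, 296, 372 and 448, Tuba1b at 70.5, 59.2, 69.0 and 77.7 and Stmn1 at 45.4, 27.5, 24.9 and 48.2 CPM.

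Among the T cell clusters the mitosis level was higher in clusters 12 and 16 than in 11 and 14. Cluster 12 of BL/6 at 20 months was the exception. Cluster 12, led by Cxcr6, Cd8a and Gzmb, had 178, 56, 29 and 35 cells and mitosis levels of 415, 30.4, 678 and 705 CPM. In these cells 1 cell held 39.8%, 22.2%, 67.1% and 82.1% of the mitosis UMIs, and without it the levels were 253, 24.1, 238 and 141 CPM. Cluster 16, led by Ikzf2, Icos and Cd4, had 86, 129, 64 and 85 cells and levels of 262, 203, 189.5 and 160.3 CPM. There 1 cell held 37.8%, 44.3%, 20% and 30.6% of the mitosis UMIs, and without it the levels were 169, 116, 159 and 116 CPM. Clusters 11 (Cd8a and Cd8b1) and 14 (Lef1, Tcf7 and Cd4) stayed between 35.2 and 62.5 CPM in the 4 libraries. Against BL/6 at 12 months, BL/6 at 20 months had fewer cells of cluster 12 (56 against 178) and a lower level within it. The 2 SM/J values in cluster 12 had overlapping intervals, 536 to 845 and 580.3 to 848 CPM. In cluster 11 of BL/6 at 20 months 1 cell with at least 5 Zcwpw1 UMIs raised the level from 22.4 to 49.6 CPM.

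**Figure D5:**
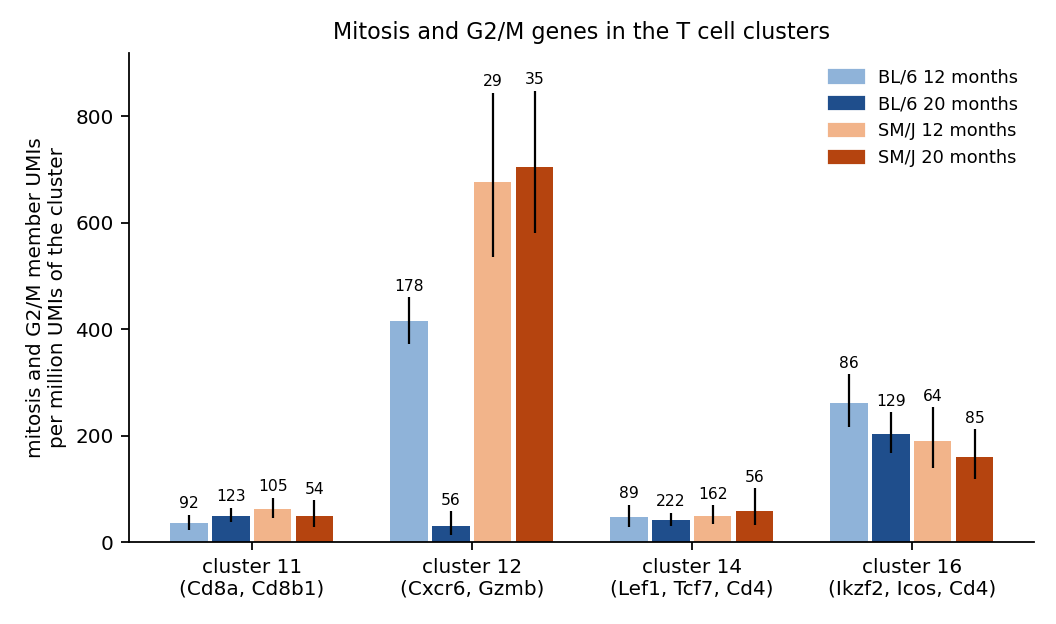
Level of the 24 mitosis and G2/M members in CPM (vertical axis) in the 4 T cell clusters (horizontal axis) and libraries (colour); bars start at 0, lines are 95% intervals for counting error and numbers above are cells. In cluster 12 BL/6 at 20 months stands at 30.4 CPM beside 415, 678 and 705 in the other libraries, of which 1 cell held 39.8%, 67.1% and 82.1% of the mitosis UMIs.

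Few other cell cycle genes of T cells were past the limit. Of 14 other G2/M genes with enough UMIs in the BL/6 age contrast, 2 were past the limit and lower, and of 19 other S phase genes also 2, against 1.7% of all genes. Smc4 was at 229 and 265 CPM at 12 and 20 months in BL/6, Tmpo at 58.5 and 57.2, Ckap5 at 41.0 and 33.0 and Racgap1 at 39.8 and 38.2. Nasp was at 77.2 and 76.2, Atad2 at 92.7 and 72.9, Slbp at 54.9 and 46.1 and Casp8ap2 at 59.3 and 38.6. Of the entry and brake genes, Btg1 (1107 and 1253), Klf2 (878 and 919), Ccnd3 (499 and 567) and Btg2 (351 and 402) had log2 ratios of 0.07 to 0.19.

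At 12 months in BL/6 the NK cells had the highest mitosis level of any class with 20 or more cells. With 95, 67, 60 and 51 cells, NK cells held all members at 5416, 2542, 3181 and 3878 CPM and mitosis members at 1304, 64.0, 123 and 268. Part of the total is the histone gene H2afz, at 1773, 1428, 2031 and 1905 CPM. At least 3 mitosis members were found in 10, 2, 1 and 1 cells, and after thinning in 6 of 95 (6.32%) and in none of 66, 57 and 50. The 5 cells of BL/6 at 12 months with at least 10 mitosis members held 85.4% of the mitosis UMIs, and without them the level was 212 CPM. In SM/J at 20 months 1 cell held 87.5%, and the level without it was 36.5 CPM.

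The BL/6 age contrast of NK cells had a log2 ratio of -1.09 (-1.21 to -0.97) for all members and -4.33 (-5.06 to -3.68) for mitosis. Of 11 members with enough UMIs 7 were past the limit and lower at 20 months and none higher. Of all genes, 2.4% were lower and 1.31% higher. Birc5 and Ube2c reached the minimum through the 12-month library alone, with 50 and 76 UMIs there. With no minimum, 0 members were higher and 28 lower, against 14.8% and 20.6% of all genes with a UMI. Mki67 was at 165 and 6.73 CPM (-4.43), Top2a at 175 and 16.8 (-3.30) and Cenpa at 117 and 10.1 (-3.41). In BL/6 at 20 months Ube2c was at 0 after 146 CPM, at least 14.5-fold lower, and Birc5 at 0 after 96.1, at least 9.51-fold lower. Stmn1 (252 and 80.8, -1.63) and Hmgb2 (1343 and 512, -1.39) were the other 2. The aliquots of the 2 ages did not overlap for 6 of these 7 genes, all but Stmn1. With the members and other cycle genes left in the clustering, NK cells of BL/6 at 12 months held mitosis members at 148 CPM. The log2 age ratio of all members was then -0.16.

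Synthesis members of NK cells differed less with age in BL/6. Pcna was at 148, 87.5, 41.1 and 101 CPM, Mcm6 at 78.8, 74.1, 76.3 and 95, Mcm4 at 63.4, 43.8, 47.0 and 50.3 and Mcm3 at 51.9, 37.0, 29.3 and 55.9. Pclaf was at 82.6, 13.5, 5.87 and 78.2 CPM. Tuba1b was at 142, 74.1, 117 and 123. In SM/J the age ratio of all members was 0.29 (0.12 to 0.45), that of synthesis members 1.29 (0.78 to 1.83), that of mitosis members 1.12 (0.35 to 1.92) and that of the broadly expressed members 0.09 (-0.09 to 0.27). The mitosis ratio rests on the 1 cell named above, without which the level at 20 months was 36.5 CPM and below the 123 at 12 months, and the ratio of all members was -0.018 with the members left in the clustering. In this contrast none of 2 members with enough UMIs was past the limit, against 1.63% higher and 1.09% lower of all genes.

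Between strains at 12 months the log2 ratio of all members in NK cells was -0.77 (-0.90 to -0.63), but 0.15 with the members left in the clustering. At 12 months 8 of 11 members were past the limit and lower in SM/J than in BL/6 NK cells and none higher. Of all genes, 5.62% were lower and 2.17% higher. Mki67, Ube2c and Birc5 reached the minimum through BL/6 alone, with 86, 76 and 50 UMIs there. With no minimum, 1 member was higher and 32 lower, against 17.5% and 28.5% of all genes with a UMI. Mki67 was at 0 in SM/J, at least 9.38-fold lower, Ube2c at least 8.29-fold and Birc5 at least 5.46-fold lower, and Top2a (-3.24), Cenpa (-1.49), Pcna (-1.82), Stmn1 (-1.71) and Hmgb2 (-1.21) completed the 8. At 20 months none of 2 members was past it, against 2.29% higher and 3.65% lower. Of 7 other G2/M genes with enough UMIs in the BL/6 age contrast 4 were past the limit and lower, against 2.4% of all genes, among them Smc4 (211 and 90.9 CPM, -1.21) and Cks2 (117 and 47.1, -1.30), whereas Tmpo (-0.73) and Racgap1 (-0.42) were not. Slbp (-0.53), Nasp (-0.22), Rfc2 (-0.29) and Atad2 (0.12) of S phase, and Ccnd3 (0.53), Btg1 (0.07), Btg2 (0.76) and Klf2 (0.14), were within it.

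Plasma cells were few, 47 in BL/6 at 20 months and 27 in SM/J at 20 months, with fewer than 20 at 12 months in both strains, so no contrast was made. Their cluster was led by Igha and Jchain. Mitosis members stood at 312 CPM in the BL/6 cells and 1159 in the SM/J cells, and synthesis members at 101 and 713. Mki67 was at 92.3 and 220.4 CPM, found in 22 of 47 and 9 of 27 cells, while Top2a was at 8.71 and 209, found in 3 and 8 cells. In BL/6, Mki67 was thus widespread among plasma cells with little Top2a.

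The SM/J level came from 3 cells with at least 10 mitosis members, which held 93.9% of the mitosis UMIs, and without them it was 92.2 CPM. All 3 were among the 22 of 27 plasma cells with at least 5 Zcwpw1 UMIs. In BL/6 the 2 cells with at least 10 members held 40.8%, and the level without them was 195.4 CPM. Birc5 was at 24.4 and 73.5, Ube2c at 26.1 and 56.9 and Cenpa at 34.8 and 35.6 CPM. Of the synthesis genes Pclaf was at 13.9 and 192, Rrm2 at 10.4 and 116, Mcm6 at 8.71 and 104, Pcna at 19.2 and 94.8 and Mcm7 at 8.71 and 42.7. Hmgb2 was at 239 and 521, H2afz at 145 and 448, Tuba1b at 8.71 and 369.8 and Stmn1 at 31.3 and 99.6 CPM. At least 3 mitosis members were found in 10 of 47 (21.3%) and 3 of 27 cells (11.1%), and after thinning in 0 of 47 and 3 of 27.

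Macrophages were abundant in 1 library only, with 30, 38, 35 and 398 cells. All members stood at 878, 808, 1315 and 1413 CPM and mitosis members at 90.7, 57.4, 159.8 and 236. At 12 months 1 cell held 42.6% of the mitosis UMIs in BL/6 and 46.3% in SM/J. Without it the 12-month levels were 54.6 and 88.7 CPM. The aliquots of SM/J at 20 months ran from 111 to 323 CPM for mitosis, above the 29.6 to 75.8 of BL/6 at 20 months. At least 10 mitosis members were found in 10 of the 398 cells, which held 75.9% of the mitosis UMIs, and without them the level was 59.5 CPM, beside the 57.4 of BL/6. Thinned, 7 of 398 cells (1.76%) had at least 3 mitosis members, and none of 30, 38 and 34 in the other libraries. The 28 cells with at least 3 mitosis members before thinning had 56.9 CPM of Zcwpw1 against 8.79 in the other 370, and 1 of the 28 held at least 5 Zcwpw1 UMIs. Their median depth was 19750.5 against 12498 UMIs, and the part of these differences in the result was not tested.

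At 20 months 14 of 22 members with enough UMIs were past the limit and higher in SM/J than in BL/6 macrophages and none lower, against 8.8% and 3.95% of all genes. Only 14 of the 22 intervals lay above 0, and the BL/6 side rests on few UMIs. Top2a was at 7.72, 1.69, 17.5 and 36.2 CPM (log2 ratio 3.79, 1.82 to 5.16) and Mki67 at 7.72, 1.69, 11.7 and 25.5 (3.30, 1.33 to 4.68), each from 1 UMI in BL/6 at 20 months. Birc5 and Nusap1 were at 0 there and at least 3.14-fold and 3.18-fold higher in SM/J. Ube2c was at 11.6, 3.37, 11.7 and 15.6 CPM. It (1.92) and Cdk1 (1.44, -0.21 to 3.11) were the other mitosis members past the limit, and Cenpa was at 27.0, 16.9, 42.9 and 27.8 CPM.

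Of synthesis and broadly expressed members in that strain contrast, Pclaf (2.70), Mcm4 (2.05), Tyms (1.42), Rrm1 (1.38), Mcm6 (1.37), Mcm7 (1.32), Stmn1 (2.67) and Tuba1b (1.23) were past the limit. Pcna was at 71.4, 77.6, 89.6 and 84.4 CPM, Mcm3 at 11.6, 15.2, 5.85 and 21.0, H2afz at 320.5, 344, 497 and 445 and Hmgb2 at 124, 135, 159.8 and 168. Tuba1b was at 185, 119.8, 210.4 and 281 and Stmn1 at 3.86, 3.37, 37.0 and 26.9.

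In the SM/J age contrast of macrophages 8 of 23 members were past the limit and higher at 20 months and none lower, against 5.43% and 1.81% of all genes, and 5 of the 23 intervals lay above 0. They were Mki67 (1.06, -0.03 to 2.35), Top2a (1.00, 0.09 to 2.06), Nusap1 (1.80), Cenpf (1.70, -0.37 to 3.21), Cdca8 (1.02, -0.67 to 2.79), Rrm1 (1.56), Mcm2 (1.82, -0.24 to 3.34) and Mcm3 (1.68). All members together had a log2 ratio of 0.10. In BL/6 none of 4 members was past the limit (2.31% higher and 2.89% lower of all genes), nor any of 4 between strains at 12 months (5.06% and 5.12%). Other cell cycle genes in the 20-month strain contrast included 5 of 13 other G2/M genes and 3 of 18 other S phase genes past the limit and higher, against 8.8% of all genes. Smc4 (0.01), Ckap5 (0.81), Tmpo (-0.37), Cks2 (0.11), Pola1 (0.25), Rfc2 (-0.16) and Atad2 (0.96) were within it and Nasp (1.16) past it. Klf2 was at 732 and 1610.1 CPM (1.14), and Btg1 (-0.22), Btg2 (-0.21) and Ccnd3 (-0.32) were within the limit.

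Among the mitosis members Cenpa had the most UMIs in classical monocytes of each library. It was at 46.0, 57.1, 60.1 and 34.9 CPM and Kif23, the kinesin of the midbody, at 9.46, 19.0, 22.4 and 8.15. Mki67 was at 2.15, 3.09, 3.54 and 5.82 and Top2a at 5.16, 3.31, 5.89 and 10.5. Aurkb was at 6.02, 2.87, 4.72 and 2.33 and Aurka at 3.44, 3.97, 3.54 and 0. No classical monocyte held 10 mitosis members, and after thinning none held 3. For all members the BL/6 age ratio was -0.01 and the SM/J age ratio -0.04. With age none of 8 members with enough UMIs in BL/6 (1.3% higher and 1.74% lower of all genes) and none of 5 in SM/J (1.73% and 1.79%) was past the limit, and none of 5 was between strains at 12 months (3.75% and 2.92%). At 20 months Kif23 (-1.13) and Mcm3 (-1.34) were 2 of 8 past the limit and lower in SM/J, with none higher, against 3.59% and 3.85% of all genes. The interval of Mcm3 (-2.78 to 0.06) includes 0.

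The synthesis genes of classical monocytes were led by Pcna, at 72.2, 61.1, 79 and 52.4 CPM. Mcm4 was at 11.2, 9.05, 10.6 and 12.8, Mcm3 at 7.74, 10.4, 2.36 and 3.49, Rrm1 at 5.16, 4.63, 15.3 and 12.8 and Mcm7 at 5.59, 3.75, 1.18 and 4.66. H2afz was at 878, 863, 647 and 699 and Hmgb2 at 454, 467, 409 and 379.7, while Tuba1b was at 70.5, 61.6, 77.8 and 82.7 and Stmn1 at 0.430, 2.21, 0 and 4.66.

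In nonclassical monocytes Kif23 was at 15.7, 21.7, 29.8 and 29.1 CPM and Cenpa at 18.6, 12.2, 19.3 and 22.6. Mki67 was at 21.8, 3.72, 4.49 and 4.85 and Top2a at 8.87, 6.62, 12.8 and 6.47. In BL/6 at 12 months 1 cell with 21 mitosis members held 54.0% of the mitosis UMIs, and without it the level was 59.1 CPM rather than 125. In the BL/6 age contrast Mki67 (-2.27) and Mcm6 (-1.48) were 2 of 14 past the limit and lower, with none higher, against 1.67% and 1.37% of all genes. Between strains at 12 months Mki67 (-2.05) was 1 of 13 past it and lower in SM/J, with none higher, against 2.46% and 4.5%. Without the cell with most mitosis UMIs in each library the Mki67 ratios were -0.60 (-1.47 to 0.30) with age and -0.39 (-1.33 to 0.57) between strains. None of 10 was past it with age in SM/J (0.34% higher and 1.47% lower of all genes), nor any of 11 between strains at 20 months (2.75% and 3.01%). The checkpoint gene Bub1b was at 7.66, 3.52, 0.321 and 0.808 CPM. Pcna was at 73.0, 79.2, 85.7 and 83.3, Rrm1 at 12.9, 14.5, 20.5 and 24.3, Mcm3 at 17.7, 18.8, 13.8 and 9.70 and Mcm6 at 13.3, 4.14, 13.5 and 16.2. Mcm4 was at 11.7, 14.3, 12.2 and 9.70 and Mcm5 at 9.28, 9.72, 9.95 and 12.9. Hmgb2 was at 306, 318, 312 and 264, H2afz at 265, 227, 203 and 178, Tuba1b at 48.8, 69.3, 75.4 and 71.1 and Stmn1 at 6.86, 3.93, 2.57 and 1.62 CPM. Of the cycle entry genes in BL/6, Ccnd3 was at 297 and 612 CPM at 12 and 20 months (1.04), and Btg1 (-0.01), Btg2 (0.05) and Klf2 (-0.06) were near 0. In each class above, the members given no value were not among the 5 of their role with most UMIs and were not past the limit in any contrast.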

How the data were processed

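Multiplexed 10x 3' single-cell RNA sequencing was applied to blood mononuclear cells from both strains and both ages. The deposited matrices hold UMI counts per gene and cell, not normalized, written by the authors with Cell Ranger 7.0.1 per the file headers; Seurat 4.3.0 and mm10 stand in the submitters' processing notes. Cells below 500 UMIs or 200 genes, or above 10% mitochondrial UMIs, were dropped, and Scrublet in scanpy 1.11.5 (expected rate 0.06) removed doublets. Clustering used 2000 variable genes, 30 components, 15 neighbours and Leiden resolution 1.0 (leidenalg 0.10.2, seed 0), and clusters were named from marker lists. The members and the lists of other G2/M and S phase genes were kept out of the variable genes. The alternative with members left in puts all of them back. Of the deposited cells, 48 had no tag of their own library and enter no aliquot. Levels are summed UMI counts per 1000000 (CPM); ratios need 50 UMIs over both groups, with conditional binomial intervals, and shares have Clopper-Pearson intervals, whereas the limit for a count of 0 is 3 counts over the total. These cover counting error only. In each class the 5 members of a role with most UMIs, those with a log2 ratio of at least 1 in size, Mki67 and Top2a are named, and 4 genes of each other list. Members and lists were chosen with earlier results of these data known. Python 3.11.15, numpy 2.4.6, scipy 1.17.1, pandas 2.3.3, matplotlib 3.10.9 and R 4.3.3 with edgeR 4.0.16 (TMM factors only) were used, and the code was tested on simulated data.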

Additional observations from a re-analysis of the deposited data

Results flagged for a closer look

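In 3 classes the summed level of the 40 members differed between 12 and 20 months in opposite directions in the 2 strains' libraries. Both intervals lay to 1 side of 0 in each of these classes. The ratios of macrophages also differed in sign (-0.12 in BL/6 and 0.10 in SM/J), but both their intervals include 0. In T cells the log2 ratio of 20 over 12 months was -0.60 in BL/6 and 0.49 in SM/J. In NK cells it was -1.09 in BL/6 and 0.29 in SM/J, and -0.16 and -0.018 with the members left in the clustering. In other B cells it was 0.20 in BL/6 and -0.10 in SM/J, and leaving out 1 aliquot at a time gave -0.10 to 0.33 in BL/6, the lowest without aliquot 6. With 1 library per strain and age the difference between strains was not tested.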

How the results depend on the processing

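Over 66 results and 678 alternatives, 490 values stayed within the spread or counting interval of the reported one, 171 moved and 17 changed sign, a change of sign being counted where the reported interval lay to 1 side of 0. For the 11 main results these were 72, 56 and 1 of 129 alternatives. The log2 ratio of all members in Zcwpw1-high over other B cells (1.33) was 1.61 at a mitochondrial limit of 5%, 2.30 at resolution 2.0, 3.27 with members left in the clustering and 1.39 when unnamed clusters then took their best class. It was 2.03 without the 4 broadly expressed members, 1.502 with TMM scaling, 1.38 and 1.05 at 3 and 10 Zcwpw1 UMIs, and 1.21 to 1.42 leaving out 1 aliquot. Without cells with at least 3 mitosis members it was -0.075, and -0.23 for mitosis members, which follows from the choice of cells. With 10 CPM added, 19 members were past the limit. The level of 1952 CPM became 2142, 3767, 7329, 2020.6 (members left in, best class), 1997 (resolution 2.0, best class) and 920.6 (without the broadly expressed members), and 1841 to 2044 leaving out 1 aliquot. In the clusterings at resolution 2.0 and with members left in, the cluster with most Zcwpw1-high cells was unnamed, so few such cells remained. The best-class alternatives and those that leave out cells by mitosis members were chosen after the data were seen.

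The share with 3 of any members (9.59%) was 13.4% at the 5% limit, 35.5% at resolution 2.0, 89.0% with members left in, 15.6% thinned to 2000 UMIs, 84.7% not thinned, and 19.1% and 5.42% for at least 2 and 5 members. The share with 3 mitosis members (3.50%) was 18.8% at resolution 2.0, 46.6% with members left in, 5.30% thinned to 2000 UMIs, 13.3% not thinned and 1.81% for at least 5; leaving out 1 aliquot gave 3.14% to 4.09%. T cell log2 age ratios in BL/6 were -0.68 (5% limit), -0.47 (resolution 2.0), -1.01 (members left in, with or without best class), -0.82 (without broadly expressed members), -0.51 (TMM) and -0.74 to -0.44 (1 aliquot out), and in SM/J 0.67, 0.65, 0.64, 0.66, 0.38 and 0.33 to 0.65. The T cell strain ratio at 20 months was 0.73, 0.78, 0.75 and 0.46 to 0.79 for the 5% limit, members left in, no broadly expressed members and 1 aliquot out. TTTGAA or TTTAAA in mitosis promoters was found in 50% within 200 bases.

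Signs also changed in these results. Other B cells of BL/6 had an age ratio of -0.10 without aliquot 6, and NK cells of SM/J -0.018 with members left in. In nonclassical monocytes of BL/6 it was 0.054 at the 5% limit and with members left in, and leaving out 1 aliquot gave -0.20 to 0.045. The 12-month strain ratio was 0.15 in place of -0.77 in NK cells with members left in, 0.29 in classical monocytes without the broadly expressed members, and in nonclassical monocytes 0.10 at the 5% limit, 0.085 with members left in, and -0.17 to 0.076 leaving out 1 aliquot. At 20 months it was 0.18 in nonclassical monocytes without the broadly expressed members. The cause of these changes was not tested. Where the reported interval includes 0, leaving out 1 aliquot also gave both signs, from -0.17 to 0.26 in other B cells between strains at 20 months, and with age from -0.30 to 0.065 in macrophages of BL/6 and from -0.038 to 0.023 and -0.12 to 0.023 in classical monocytes of BL/6 and SM/J. Of 60 calls of single members in age and strain contrasts, 53 stayed past the limit, and none changed direction, without the cell with most mitosis UMIs in each library, an alternative added after the data were seen. With no minimum of UMIs, members past the limit are given as higher and lower, with shares of all genes with a UMI in brackets. With age they were 0 and 18 in T cells of BL/6 (2.72% and 4.28%) and 13 and 3 in SM/J (6.00% and 7.4995%). NK cells had 0 and 28 in BL/6 (14.8% and 20.6%) and 19 and 2 in SM/J (20.9% and 20.8%). Macrophages had 6 and 9 in BL/6 (19.3% and 13.03%) and 15 and 2 in SM/J (10.4% and 6.85%). Other B cells had 17 and 0 in BL/6 (1.44% and 1.05%) and 0 and 6 in SM/J (1.34% and 1.60%). Classical monocytes had 2 and 3 in BL/6 (3.03% and 2.59%) and 6 and 9 in SM/J (21.3% and 11.9%). Nonclassical monocytes had 0 and 14 in BL/6 (2.88% and 3.13%) and 0 and 4 in SM/J (2.76% and 5.59%). Higher and lower in SM/J than in BL/6 at 12 months, members were 1 and 16 in T cells (6.59% and 8.91%). NK cells had 1 and 32 (17.5% and 28.5%) and macrophages 13 and 1 (20.5% and 16.04%). Other B cells had 8 and 2 (4.73% and 4.28%) and classical monocytes 7 and 6 (12.8% and 7.67%). Nonclassical monocytes had 0 and 12 (7.30% and 3.48%). At 20 months T cells had 17 and 2 (7.00% and 6.70%) and NK cells 16 and 2 (18.5% and 24.4%). Macrophages had 25 and 0 (12.1% and 8.28%) and other B cells 1 and 12 (5.19% and 6.72%). Classical monocytes had 5 and 7 (15.6% and 5.55%) and nonclassical monocytes 1 and 1 (6.59% and 5.58%). No paired analysis was made, since each strain and age has 1 library and only 2 strains could be paired by age.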
